A study of Mus musculus with 6 samples.

Results

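The Krüppel-like factors are transcription factors that bind CACCC and GC-rich DNA boxes through tandem zinc fingers at their carboxyl end. Members were taken by gene symbol, and all 10 listed ones (Klf2, Klf3, Klf4, Klf5, Klf6, Klf7, Klf9, Klf10, Klf13 and Klf15) were found among the 78409 genes of the deposited table. All 10 also passed the filter on low counts. They were measured in nephrogenic stroma, the interstitial cells around the nephron progenitors at the rim of the fetal kidney. Cells were sorted by PDGFRa from kidneys of wild-type CD1 embryos (embryonic day 18), pooled before digestion. The cells were cultured in serum for 18 h on PDMS, a silicone elastomer, that had been incubated in bovine fibronectin at 50000 ng/mL (high adhesion, 3 libraries) or 500 ng/mL (low adhesion, 3 libraries). All cells had been held in a sorting medium with the ROCK inhibitor Y27632. Both substrates were seeded from each of 3 litters, so a replicate is a litter, and each litter is a pool of kidneys.

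The family divides by what its amino-terminal part recruits. Klf3, Klf8 and Klf12 repress through the corepressor CtBP, Klf9, Klf10, Klf11, Klf13, Klf14 and Klf16 recruit the corepressor Sin3a, and Klf2, Klf4, Klf5, Klf6 and Klf7 mostly activate. Several are early response genes: Klf2 and Klf4 are induced by fluid shear in endothelium through the kinase ERK5 and MEF2 factors, Klf6 by injury and serum, and Klf10 by TGF-beta. Klf9 and Klf15 are induced by glucocorticoids.

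The start regions of Klf2, Klf6 and Klf4 are shown because these activators were higher at high adhesion. Klf5, also an activator and also higher, is not shown because no window was available for it. The sequences are RefSeq windows of build GRCm38.p6, from 250 bases before to 50 after the annotated start, in the direction of transcription. Of the 10 members 8 had one, all but Klf5 and Klf10. The counting used another build (GRCm39). Capitals mark each GGGCGG box on either strand and, in Klf2 alone, a MEF2 consensus, which starts 118 bases before the start site.
Klf2, chr8:72318812-72319111, + strand: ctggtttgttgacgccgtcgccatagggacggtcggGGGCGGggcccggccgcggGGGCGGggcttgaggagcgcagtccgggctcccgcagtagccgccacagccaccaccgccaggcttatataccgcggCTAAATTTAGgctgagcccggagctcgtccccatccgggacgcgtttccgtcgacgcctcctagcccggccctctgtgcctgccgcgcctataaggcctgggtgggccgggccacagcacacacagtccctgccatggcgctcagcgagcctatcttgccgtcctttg
Klf6, chr13:5861239-5861538, + strand: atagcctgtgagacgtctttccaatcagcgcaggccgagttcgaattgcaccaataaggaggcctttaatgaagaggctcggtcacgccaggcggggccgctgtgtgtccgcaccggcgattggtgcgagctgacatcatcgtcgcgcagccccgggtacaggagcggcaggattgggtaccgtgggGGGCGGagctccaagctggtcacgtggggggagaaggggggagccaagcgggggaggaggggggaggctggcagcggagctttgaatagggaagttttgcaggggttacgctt
Klf4, chr4:55532426-55532725, - strand: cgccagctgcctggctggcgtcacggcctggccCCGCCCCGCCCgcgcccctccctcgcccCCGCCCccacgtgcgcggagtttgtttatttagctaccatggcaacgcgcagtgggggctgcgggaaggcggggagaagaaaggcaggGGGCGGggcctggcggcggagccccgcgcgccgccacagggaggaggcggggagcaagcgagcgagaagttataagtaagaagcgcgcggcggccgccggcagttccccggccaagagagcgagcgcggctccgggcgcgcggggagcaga
The Klf2 window held 2 GGGCGG boxes, the Klf6 window 1 and the Klf4 window 4, the first 2 of which overlap by a base. A GGGCGG box occurred in 7 of the 8 member windows, against 35.7% of all 32851 windows of this length in the table. CACCC, searched on both strands like the others, was in 6 of 8, against 57.5% of all windows. The MEF2 consensus was in 1 of 8 (Klf2), against 3.19% of all windows, and the CArG box, the SRF consensus, was in 0 of 8, against 1.63%. These matches describe letters in short windows only.

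The libraries held 12596249 to 13508257 counts in total. Levels are given as CPM, the share of a library's counts scaled to a common total, in which 1 count equalled 0.074 to 0.0794 CPM. Stromal genes were present in every library, with Pdgfra averaging 21.1 CPM at high and 30.7 CPM at low adhesion, and Foxd1 170 and 204 CPM. In the edgeR test described below, 7 of 9 stromal markers were lower and 1 (Vim) was higher at high adhesion. Among all genes tested 4.83% were lower and 4.71% higher. Markers of other cell types were also present. The 8 epithelial markers together had 471 to 902 CPM at high and 301 to 600 CPM at low adhesion, most of it from Krt18. The non-keratin ones (Epcam, Cdh1, Cdh16, Ret and Wnt11) each averaged at most 8.92 CPM on either substrate. The 6 erythroid markers together had 166 to 331 CPM at high and 200 to 317 CPM at low adhesion. The 9 endothelial markers together had 79.3 to 104 CPM at high and 72.7 to 92.7 CPM at low adhesion, most of it from Flt1, Emcn and Kdr, while Pecam1, Cdh5, Tek and Tie1 each averaged under 1.5 CPM. The 8 leukocyte markers together had 30.7 to 75.3 CPM at high and 35.2 to 70.5 CPM at low adhesion.

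Klf2, Klf4, Klf5 and Klf6 rose at high adhesion, by 1.15-fold to 1.28-fold, and the other 6 members did not pass the test. The test was the quasi-likelihood F-test of edgeR, with litter as a block and p-values adjusted by Benjamini-Hochberg over all 14834 genes tested at a threshold of 0.05. It called 4 of the 10 members higher and 0 lower, against 4.71% higher and 4.83% lower among all genes tested, 9.55% in either direction. When only the 10202 genes of at least 5 mean CPM were fitted, 718 were called higher and 709 lower. The members were chosen with earlier results of these data known, so these shares describe the set and do not test it. At an unadjusted p under 0.05 the edgeR test had 5 members higher and 1 lower (Klf9), against 11.2% higher and 10.7% lower among all genes tested, and DESeq2 and limma-voom called 0 members lower. The median log2 fold change of the members, high minus low adhesion, was 0.13, against -0.0012 over all genes tested. In every fold change of a bulk sample, a change in the number of expressing cells and a change in RNA per cell cannot be told apart.

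**Figure D1:**
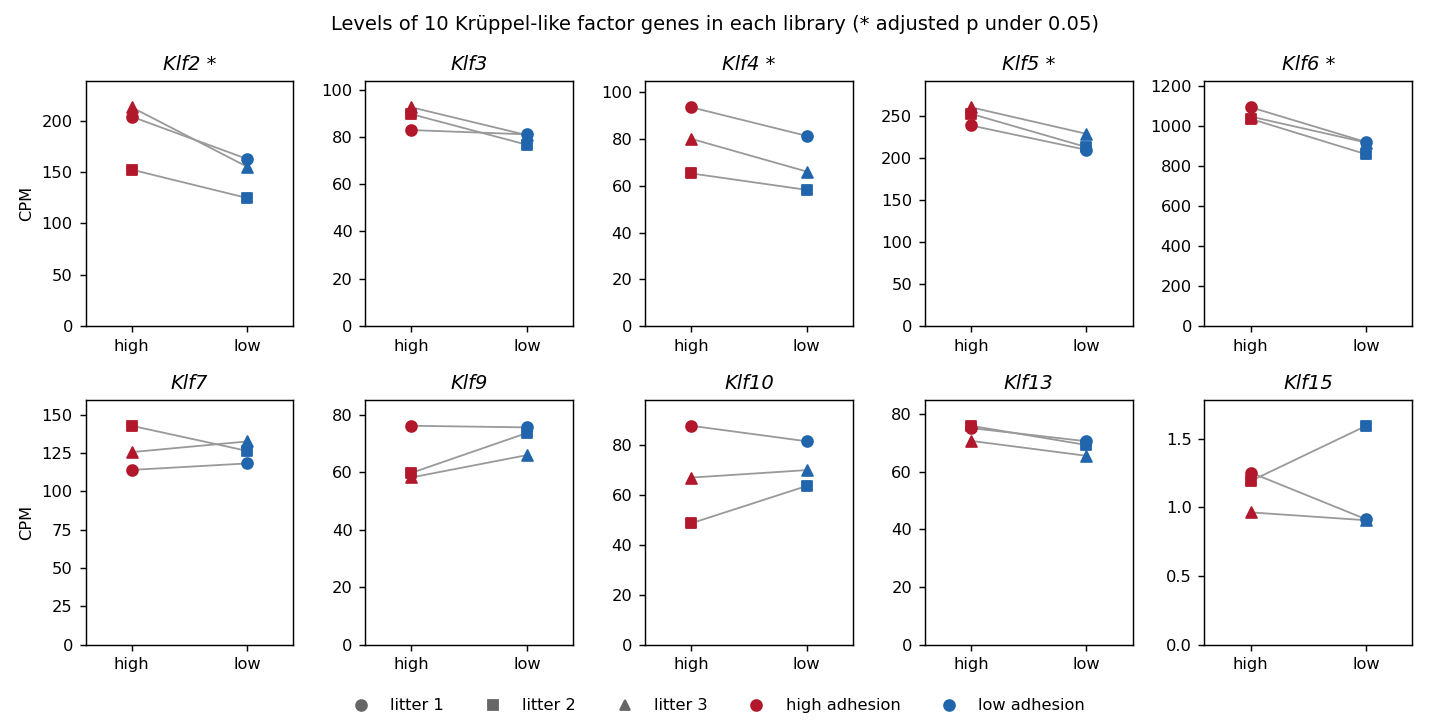
CPM (vertical axes, each from 0) of the 10 genes in every library, at high (left, red) and low (right, blue) adhesion, with a line joining the 2 libraries of a litter. An asterisk marks the 4 genes past the adjusted p of 0.05, all of which slope the same way in 3 of 3 litters.

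Klf2, a factor known for endothelial and lymphocyte quiescence, had the largest fold change of the 10 in this fit. It had 204, 153 and 213 CPM in the high adhesion libraries of litters 1, 2 and 3, against 163, 125 and 155 CPM in the low adhesion libraries. The groups overlapped, because litter 2 was the lowest on both substrates, but within each litter the high adhesion library was above its partner. The ratio was 1.25 in litter 1, 1.22 in litter 2 and 1.37 in litter 3. The log2 fold change was 0.36 ± 0.05 (standard error, n = 3 litters, edgeR adjusted p = 3.45e-06), larger in size than that of 89.0% of genes tested. Klf2 averaged 190 ± 32.8 CPM at high and 148 ± 20.1 CPM at low adhesion (SD, n = 3 each). Of 8 tested endothelial markers 1 rose with Klf2 and 1 fell, against 4.71% and 4.83% of all genes tested. The VEGF receptor gene Flt1 averaged 42.6 CPM at high and 28.9 CPM at low adhesion (log2 fold change 0.56, edgeR adjusted p = 1.62e-06), and Emcn 23.1 and 28.9 CPM (log2 fold change -0.33, edgeR adjusted p = 0.00382). The part of endothelial cells in the Klf2 result was not tested.

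Klf6, an early response gene of tissue injury, was the most abundant member. It had 1094, 1036 and 1048 CPM at high adhesion, against 920, 859 and 918 CPM at low adhesion, in the order of litters 1 to 3. Every high adhesion library was above every low adhesion one. The log2 fold change was 0.23 ± 0.04 (standard error, n = 3 litters, edgeR adjusted p = 7.97e-05), a 1.18-fold rise.

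Klf5, a driver of proliferation in many epithelia, had 239, 253 and 260 CPM at high adhesion, against 210, 213 and 229 CPM at low adhesion. Again the groups did not overlap. The rise was 1.15-fold (log2 fold change 0.20 ± 0.04, standard error, n = 3 litters, edgeR adjusted p = 0.00145). Of 7 tested epithelial markers 3 rose, the keratin genes Krt8, Krt18 and Krt19, and 0 fell, against 4.71% and 4.83% of all genes tested. Epcam averaged 7.45 CPM at high and 5.91 CPM at low adhesion, and Cdh1 1.29 and 1.01 CPM. Neither passed the test (edgeR adjusted p = 0.100 and 0.556). Wnt11 averaged 7.95 and 8.92 CPM and Cdh16 5.29 and 4.80 CPM, also not called. Ret, too low to test, averaged 0.467 and 0.569 CPM. The part of epithelial cells in the Klf5 result was not tested.

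Klf4, a pluripotency and barrier factor that also acts in smooth muscle, had 93.6, 65.3 and 80.1 CPM at high adhesion, against 81.4, 58.3 and 66.1 CPM at low adhesion. The groups overlapped, with litter 1 highest and litter 2 lowest on both substrates, and the order within each litter was the same. The rise was 1.16-fold (log2 fold change 0.21 ± 0.05, standard error, n = 3 litters, edgeR adjusted p = 0.00898). This is the least stable of the 4 calls: it was lost in DESeq2 (adjusted p = 0.181) and without litter 3 (edgeR adjusted p = 0.156). Klf4 held fractional counts in 6 of 6 libraries, Klf2 and Klf13 in 3, Klf3 and Klf5 in 2, and Klf6, Klf9 and Klf10 in 1. How the fractions arose is not stated, so these levels are less certain.

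All 4 calls rest on the comparison within litters. With litter left out of the model, the adjusted p was 0.516 for Klf2, 0.152 for Klf6, 0.309 for Klf5 and 0.759 for Klf4 (edgeR), with fold changes nearly the same.

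**Figure D2:**
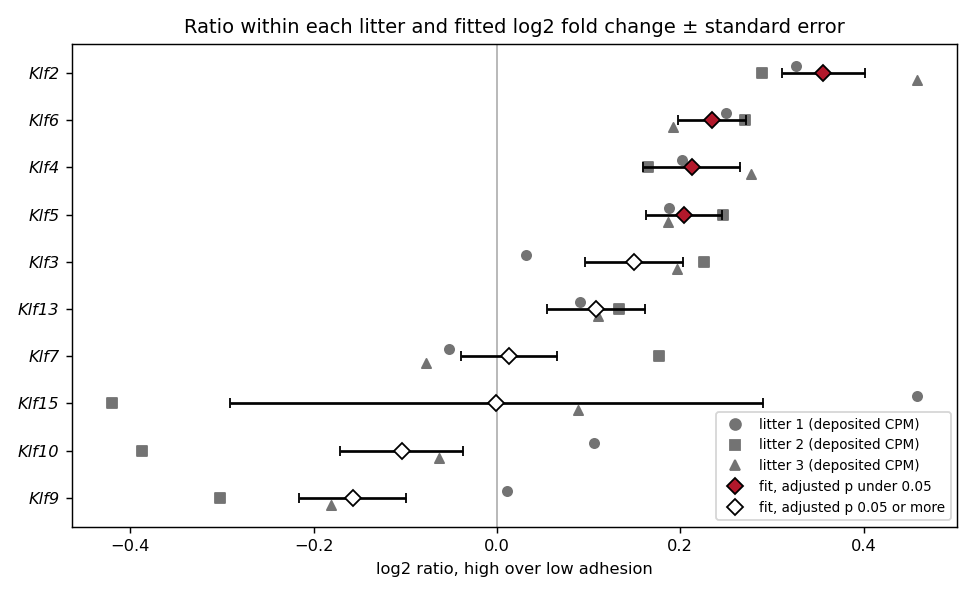
Log2 ratio of high over low adhesion (horizontal axis) for each gene, as the ratio of deposited CPM in each litter (grey symbols) and as the fitted log2 fold change with its standard error (diamonds). Klf2, Klf6, Klf4 and Klf5 lie right of 0 in 3 of 3 litters, while Klf7, Klf9, Klf10 and Klf15 have litters on both sides.

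Klf3, a repressor that binds CtBP, and Klf13, which binds Sin3a, were higher in 3 of 3 litters but did not pass the test. Klf3 had 82.9, 89.6 and 92.5 CPM at high adhesion, against 81.1, 76.7 and 80.7 CPM at low adhesion. Its libraries did not overlap, but the ratio was only 1.02 in litter 1, beside 1.17 in litter 2 and 1.15 in litter 3. The log2 fold change of 0.15 ± 0.05 did not pass (standard error, n = 3 litters, edgeR adjusted p = 0.0828), and without litter 1 it was 0.22 (adjusted p = 0.0291). Klf13 had 75.2, 76.0 and 70.8 CPM at high adhesion, against 70.6, 69.3 and 65.6 CPM at low adhesion. It too was separate between the groups, with a log2 fold change of 0.11 ± 0.05 that did not pass (edgeR adjusted p = 0.236). Among all members, 4 (Klf3, Klf5, Klf6 and Klf13) had every high adhesion library above every low one, against 7.82% of genes tested, and 0 had the reverse, against 7.6%. Counted by litter, 6 members were higher in 3 of 3 litters, against 21.1% of genes tested, and 0 were lower in 3 of 3, against 20.2%.

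Klf9 and Klf10 had fold changes below 0 that did not pass. Klf9, a glucocorticoid-induced factor, had 76.1, 59.7 and 58.1 CPM at high adhesion, against 75.5, 73.6 and 65.9 CPM at low adhesion. Litters 2 and 3 were lower at high adhesion and litter 1 was level, at a ratio of 1.01. The log2 fold change was -0.16 ± 0.06 (standard error, n = 3 litters, edgeR adjusted p = 0.0933), and -0.24 without litter 1 (adjusted p = 0.0289). Klf10, the TGF-beta inducible early gene, had 87.6, 48.5 and 66.8 CPM at high adhesion, against 81.4, 63.5 and 69.8 CPM at low adhesion. The ratio of high over low was 1.08 in litter 1, 0.765 in litter 2 and 0.957 in litter 3, and the fitted fold was 0.930, with a 95% interval of 0.845 to 1.02. Its log2 fold change of -0.10 turned to 0.012 without litter 2.

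Klf7 and Klf15 gave no direction. Klf7, known for axon growth, had 114, 143 and 126 CPM at high adhesion, against 118, 126 and 133 CPM at low adhesion, a fold of 1.01 with a 95% interval of 0.937 to 1.09. Only litter 2 was higher at high adhesion. Klf15, a regulator of metabolism and a podocyte factor, was close to the limit of detection, with 16, 15 and 13 counts at high adhesion, against 12, 21 and 12 at low adhesion. The sums of 44 counts (95% Poisson interval 32 to 59.1, counting error only) and 45 counts (32.8 to 60.2) leave a fold of 0.999 with an interval of 0.660 to 1.51, so a moderate change would not have been detectable at this depth.

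Levels of different genes were compared per kilobase of annotated exon. Klf6 had 236 to 249 CPM per kb at high and 196 to 210 CPM per kb at low adhesion and made up 48.5% to 52.6% of the summed per-kb level of the 10 genes in every library. Klf2 came next with 82.6 to 116 CPM per kb at high and 67.6 to 88.2 CPM per kb at low adhesion, then Klf5 with 45.9 to 50.1 and 40.3 to 44.0 CPM per kb. Klf4 followed with 21.4 to 30.7 CPM per kb at high and 19.1 to 26.7 CPM per kb at low adhesion. The next genes, Klf10, Klf7 and Klf9, overlapped one another over the 6 libraries, with means of 16.7, 15.6 and 14.2 CPM per kb, and the range of Klf4 also reached into that of Klf10. Klf13 (mean 9.46 CPM per kb) and Klf3 (7.46 CPM per kb) stood apart from each other and from these, and Klf15 was lowest at 0.407 CPM per kb. The 4 genes that rose were the 4 of highest level per length. In CPM not divided by length, Klf4 (mean 74.1 CPM) was below Klf7 (127 CPM) and Klf3 (83.9 CPM). The summed per-kb level of the 10 genes was 505, 449 and 492 at high adhesion, against 431, 386 and 422 at low adhesion, and Klf6 and Klf2 supply most of it.

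**Figure D3:**
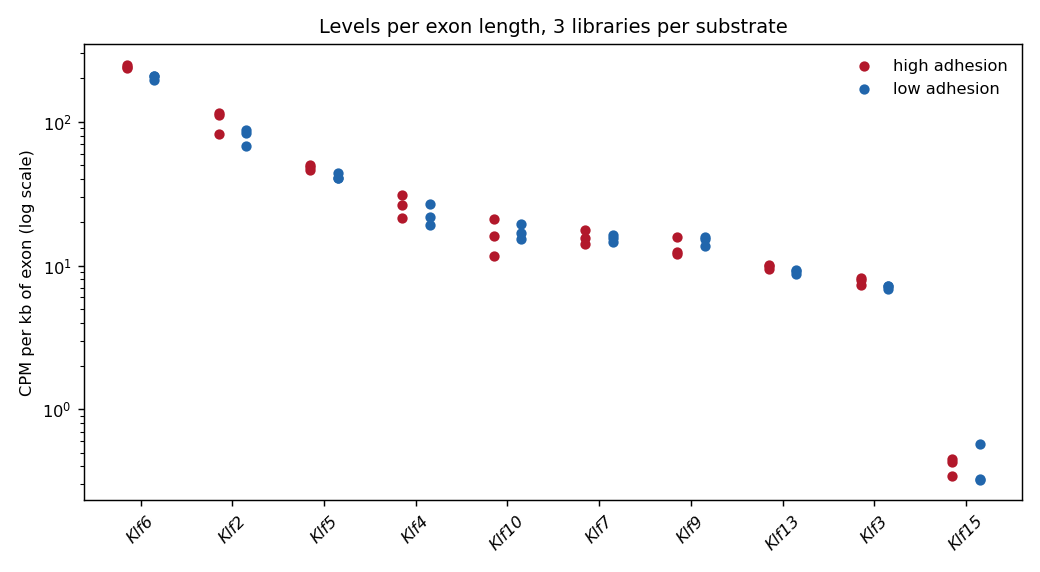
CPM per kb of exon (vertical axis, log scale) of the 10 genes, with 3 high adhesion libraries (red, left) and 3 low adhesion libraries (blue, right) each. Klf6 lies highest and Klf15 lowest, and Klf10, Klf7 and Klf9 overlap.

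Litters differed in 5 of the 10 members (Klf2, Klf4, Klf7, Klf9 and Klf10; edgeR F-test of the litter terms, adjusted over all genes tested), against 17.9% of genes tested. Klf10 had the largest of these differences in log2 ratio: its fitted log2 ratio was -0.58 for litter 2 over litter 1 and -0.30 for litter 3 over litter 1 (adjusted p = 6.75e-05). Klf4 had -0.49 and -0.26 (adjusted p = 1.24e-05), and Klf2 -0.39 and 0.0040 (adjusted p = 4.43e-06). These 3 early response genes were lowest in litter 2 on both substrates. Klf9 was lower in litters 2 and 3 (log2 ratios -0.18 and -0.29, adjusted p = 0.0134), and Klf7 was higher (0.23 and 0.16, adjusted p = 0.0350), although Klf7 missed the threshold in limma-voom (adjusted p = 0.0566). For Klf10, Klf4 and Klf7 the step between litters 1 and 2 exceeded the fitted change with adhesion in size. For Klf2 the log2 values, -0.39 and 0.36, were of like size, as were those for Klf9, -0.18 and -0.16. Of the leukocyte markers 7 of 8, and of the stromal markers 6 of 9, also differed between litters, and their part in the litter differences was not tested.

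**Figure D4:**
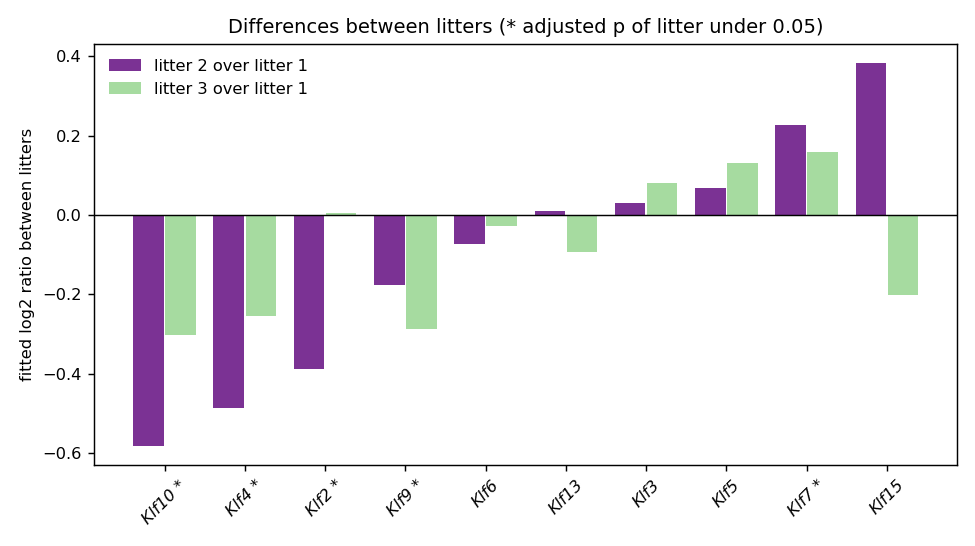
Fitted log2 ratio (vertical axis) of litter 2 over litter 1 (purple) and litter 3 over litter 1 (green) for the 10 genes, with adhesion in the model. Klf10, Klf4 and Klf2 have the lowest values for litter 2, and an asterisk marks the 5 genes with an adjusted p of litter under 0.05.

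The remaining Klf genes and the related Sp genes, which bind the same GC-rich boxes, were read in the same fit. Of 7 other Klf genes 4 were tested, of which 1 rose and 1 fell, against 4.71% and 4.83% of all genes tested. Klf12, a CtBP-dependent repressor, had 1.57, 1.19 and 2.74 CPM at high adhesion, against 3.12, 2.81 and 4.37 CPM at low adhesion. Its groups did not overlap, and its log2 fold change of -0.90 ± 0.19 (standard error, n = 3 litters, edgeR adjusted p = 0.00251) was larger in size than that of any of the 10 members, at a low level. DESeq2 gave no adjusted p for Klf12, so it did not call it. Klf16, a Sin3a-binding member, had 55.7, 46.4 and 52.9 CPM at high adhesion, against 42.5, 44.4 and 44.3 CPM at low adhesion (log2 fold change 0.24 ± 0.06, edgeR adjusted p = 0.0162). Klf16 was not called by DESeq2 (adjusted p = 0.292), without litter 1 (edgeR adjusted p = 0.243) or without litter 3 (edgeR adjusted p = 0.0997). Of 9 Sp genes 5 were tested and 0 were called by edgeR, DESeq2 or limma-voom, with 0 at an unadjusted edgeR p under 0.05. Among all genes tested 9.55% were called by edgeR and 21.9% had such an unadjusted p. Sp3 averaged 101 CPM at high and 106 CPM at low adhesion, and Sp1 65.7 and 68.8 CPM, with log2 fold changes of -0.07 each.

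**Figure D5:**
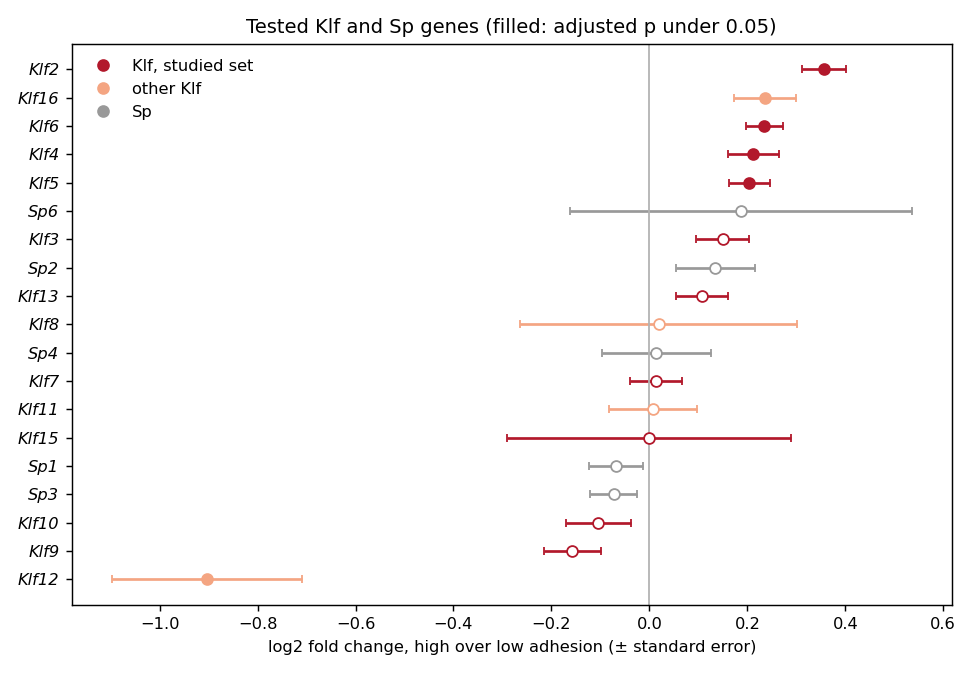
Log2 fold change of high over low adhesion with its standard error (horizontal axis) for every tested Klf and Sp gene, filled where the adjusted p was under 0.05. Klf12 is lowest at -0.90, and Klf2 is highest at 0.36.

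Partners and upstream inputs of the family were read in the same fit. Of 10 corepressor and coactivator genes 2 fell and 0 rose, against 4.83% and 4.71% of all genes tested, and limma-voom called 3 lower. The 2 were the scaffold gene Sin3a (1.17-fold lower, edgeR adjusted p = 0.0395) and the deacetylase gene Hdac1 (1.14-fold lower, adjusted p = 0.0228). Both calls were lost in DESeq2 (adjusted p = 0.572 and 0.293) and without litter 1 (edgeR adjusted p = 0.0625 and 0.278) or litter 3 (0.345 and 0.138). The median log2 fold change of this list was -0.06. Of 6 ubiquitin ligase genes that act on Klf proteins 0 were called, as with Stub1 (log2 fold change -0.05) and Siah1a (0.03). Of 11 genes for the ERK5 and MEF2 route and the CCM complex that restrains it 0 were called, as with Mef2a (log2 fold change -0.03) and the CCM gene Pdcd10 (0.04). In both of these lists 0 genes had an unadjusted edgeR p under 0.05, against 21.9% of all genes tested. DESeq2 and limma-voom called 0 in both. With 9.55% of all genes tested called by edgeR, lists this short can hold 0 called genes. These are messenger levels, which do not measure the activity of a kinase or ligase.

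Among 9 tested genes known as targets of KLF2 or KLF4 in endothelium or other cells, 3 rose and 0 fell, against 4.71% and 4.83% of all genes tested. Their median log2 fold change was 0.10, against -0.0012 over all. The list was not split into induced and repressed targets, so a rise is not the target direction for every gene. No target direction was assigned to the 3 genes that rose. Of 8 tested endothelial markers, Flt1 rose (log2 fold change 0.56), Emcn fell (-0.33) and 6 were not called in the same libraries. The part of these markers, or of endothelial cells, was not tested. The sphingosine phosphate receptor gene S1pr1, a KLF2 target in T cells, had 27.2, 51.5 and 28.9 CPM at high adhesion, against 19.8, 36.3 and 20.1 CPM at low adhesion. Litter 2, where Klf2 was lowest, had the highest S1pr1 on both substrates. The rise was 1.41-fold (log2 fold change 0.50 ± 0.07, standard error, n = 3 litters, edgeR adjusted p = 1.10e-05). The thrombomodulin gene Thbd rose 1.20-fold and the vasodilator gene Adm 1.44-fold (edgeR adjusted p = 0.00346 and 0.00519). Neither was called by DESeq2 (adjusted p = 0.0584 and 0.297), Thbd not without litter 3 and Adm not without litter 1 (edgeR adjusted p = 0.0937 and 0.0656). At an unadjusted edgeR p under 0.05, 5 of the 9 were higher and 1 was lower, against 11.2% and 10.7% of all genes tested. The endothelial nitric oxide synthase gene Nos3, a defining endothelial target, was too low to test, at 0.257 CPM at high and 0.176 CPM at low adhesion.

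Of 11 tested glucocorticoid-responsive genes 3 rose and 1 fell, against 4.71% and 4.83% of all genes tested. The other 7 were not called, among them Fkbp5 (log2 fold change -0.0079) and Per1 (0.08). The median log2 fold change of the list was 0.12. Klf9 and Klf15, the glucocorticoid-induced members, did not pass. The phosphatase gene Dusp1 rose 1.38-fold, Tsc22d3 (the leucine zipper protein GILZ) 1.32-fold and the kinase gene Sgk1 1.17-fold (edgeR adjusted p = 4.90e-09, 6.76e-05 and 0.000457). The receptor gene Nr3c1 had the 1 fall, a log2 fold change of -0.14 (edgeR adjusted p = 0.0346), and this call was lost in DESeq2 (adjusted p = 0.322), without litter 1 (edgeR adjusted p = 0.0602) and without litter 3 (edgeR adjusted p = 0.414). Of 7 tested metabolic genes known as KLF15 targets 1 fell and 0 rose, against 4.83% and 4.71% of all genes tested. The 1 that fell was Aldh2, with a log2 fold change of -0.25 (edgeR adjusted p = 0.0456). Leaving out any litter ended that call (lowest edgeR adjusted p = 0.0969). Of 8 TGF-beta early genes 4 fell and 0 rose, against 4.83% and 4.71% of all genes tested. Klf10 itself was not called (edgeR adjusted p = 0.406). The 4 that fell were Ltbp2, a latent TGF-beta binding protein gene, the SMAD inhibitor genes Smad6 and Pmepa1, and the corepressor gene Skil. They fell by 0.74, 0.42, 0.42 and 0.29 on the log2 scale. DESeq2 called the same 4, and the median log2 fold change of the list was -0.21. With litter left out of the model, of the 16 called genes named from these lists, Klf12 and Klf16 included and the 10 members not, only Dusp1 and Smad6 stayed past the threshold in edgeR.

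The genes whose levels followed Klf2 most closely over the 6 libraries, among 9085 of at least 5 CPM, were Tsc22d1, Hfm1 and Sertad2, with Pearson correlations of log2 CPM of 0.996, 0.996 and 0.995. The libraries are 3 pairs of a litter, so the likeness holds litter and adhesion together and is a description. Tsc22d1 had 109, 92.7 and 110 CPM at high adhesion, against 96.2, 85.4 and 95.2 CPM at low adhesion, with the same low litter 2 as Klf2.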

How the data were processed

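Messenger RNA was measured in 6 libraries, 3 at high and 3 at low adhesion. Per the submitters' processing notes, reads were handled with fastp 0.24.0, STAR 2.7.11 and featureCounts (Subread 2.1.1) on build GRCm39, beside FastQC, SAMtools and MultiQC. Not given in the sources used here are the annotation release, the strand setting and the treatment of reads matching several places. The authors deposited estimated counts per gene, not scaled and fractional for 7736 to 8256 genes per library, and CPM computed from them. Per-sample values in the text are the deposited CPM.

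Counts were rounded and fitted with edgeR 4.0.16 in R 4.3.3: filterByExpr by adhesion group kept 14834 genes, scaling was TMM (factors 0.988 to 1.01), and a robust quasi-likelihood model held litter as a block, as the litter-matched design states. Fold changes are high over low adhesion, standard errors are the log2 fold change divided by the root of F, and intervals use the t distribution of the fit. Same-litter libraries deviated together from their group means, with correlations of 0.72, 0.73 and 0.56 for litters 1, 2 and 3 over 10202 genes. Alternatives included DESeq2 1.42.0 and limma-voom (limma 3.58.1). Exon lengths came from GENCODE M21 (GRCm38) by gene identifier. Per-length levels assume reads spread evenly along transcripts. The code was checked on simulated counts with known changes. Members and lists were chosen with earlier results of these data known. The rule for names took every member, up to 4 called genes of lowest adjusted p per related list or else the 2 of highest level, and the 3 genes most like the called member of lowest adjusted p. Nos3, Fkbp5, Per1 and single marker genes were named after their values were seen.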

Additional observations from a re-analysis of the deposited data

How the results depend on the processing

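Without the replicate block 0 of the 10 members were called (4 at an unadjusted p under 0.05, against 9.16% of all genes tested), and 20 genes were called higher and 16 lower in all, against 699 and 717 with it. The log2 fold changes of Klf2, Klf4, Klf5 and Klf6 then were 0.36, 0.21, 0.20 and 0.23, and none passed the adjusted threshold. DESeq2 called 207 genes higher and 199 lower and did not call Klf4 (log2 fold change 0.21). Leaving out each litter in turn gave 3 to 5 members called higher and 0 to 1 lower, with 398 to 771 genes called higher and 439 to 845 lower. Without litter 3 the counts were 398 and 439. The log2 fold change then ranged from 0.10 to 0.22 for Klf3, 0.18 to 0.23 for Klf4, -0.078 to 0.064 for Klf7, -0.24 to -0.10 for Klf9, -0.21 to 0.012 for Klf10 and -0.20 to 0.27 for Klf15. Without litter 1 Klf3 and Klf9 passed (0.22 and -0.24), and without litter 2 Klf7 (-0.078), Klf10 (0.012) and Klf15 (0.27) changed sign, none of them called. Klf15, at no change, also changed sign in limma-voom (0.0063) and with RLE scaling (1.6e-06), and it was below the 5 CPM minimum and had no DESeq2 adjusted p. The litter difference of Klf7 missed the threshold in limma-voom (adjusted p = 0.0566). The cause of these shifts was not tested. Klf2, Klf5 and Klf6 stayed called under every alternative run that held litter in the model, and with all litters every such alternative except DESeq2 called the same 4 members.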
